A study of Mus musculus with 35 samples.

Results

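The libraries described here hold RNA from OT-I CTLs after 24 h without IL-2 in medium set to pH 6.6, compared with the same cells at the start of the culture (0 h). They were chosen by their labels, 5 libraries at pH 6.6 without IL-2 and 5 at 0 h, and make up 10 of the 35 libraries of the series. CTLs are cytotoxic CD8+ T cells, and in OT-I mice they carry 1 transgenic receptor for an ovalbumin peptide. The splenic CD8+ T cells had been primed on anti-CD3 with anti-CD28 antibodies and expanded with 200 IU/mL murine IL-2, so that every library, 0 h included, came from cells grown with this cytokine. For the 24 h culture the medium was low-glucose DMEM with fetal bovine serum, acidified with HCl, and dead cells were removed on Ficoll before RNA extraction. The 2 other groups used for comparison were kept for 24 h at pH 7.4 without IL-2, and for 24 h at pH 6.6 with 200 IU/mL IL-2, with 5 libraries each. The labels give no age or sex of the mice. Time in culture, loss of IL-2 and acid act together between 0 h and pH 6.6, and cannot be told apart in that comparison, whereas the group at pH 7.4 differs from the one at pH 6.6 in pH alone, as far as the labels say.

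IL-2 binds a receptor of α, β and γ chains and signals through the kinases JAK1 and JAK3 to the transcription factor STAT5. In CTLs it sustains the granzymes and perforin, the transcription factor c-Myc, ribosome production, glycolysis and cell division, while its loss is known to let genes of quiescent and memory T cells return and to lower survival factors. Extracellular acid is known to lower intracellular pH, to engage proton-sensing receptors that signal through cyclic AMP, and to curb mTORC1.

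The reads counted on genes numbered between 23159990 and 27400369 per library at 0 h (median 25130540) and between 22257963 and 33054825 at pH 6.6 (median 24189365). Reads that aligned to more than 1 place were not counted, and their share was 39.3% to 48.3% at 0 h and 36.7% to 39.5% at pH 6.6. Replicate 5 at 0 h had the highest share, 48.3%, and stood above the other 0 h libraries in the mean level of cytosolic ribosomal protein genes, while replicate 1 at pH 6.6 stood apart from its group in Klf10, Il7r and Ulk1 among other genes. Replicates 1, 4 and 5 at 0 h had higher levels of Hk2, Slc2a1 and Ak4 than replicates 2 and 3. Levels are in CPM, read counts scaled to sequencing depth, which is the total count of the library for the markers here and the TMM-adjusted total for the genes after them. The 8 CD8+ T cell markers examined (the CD3 chains, Cd8a, Cd8b1, Cd2, Thy1 and Lck) were all above 1 CPM in the 10 libraries, with a summed level of 5308 to 6198 CPM at 0 h and 3470 to 4291 CPM at pH 6.6. Of 6 B cell markers, Ms4a1, Cd22 and Pax5 were at 0 and the sum was at most 6.21 CPM, and the 6 erythroid and platelet markers reached at most 0.279 CPM. Of 4 CD4+ T cell markers, Zbtb7b supplied most of a sum that was 41.2 to 63.4 CPM at 0 h and 17.2 to 30.5 CPM at pH 6.6, with Cd4 itself at most 1.12 CPM. The 11 myeloid markers summed to 19.2 to 35.9 CPM and 11.2 to 22.8 CPM, with S100a8 at 0. The 5 NK cell markers summed to 209 to 266 CPM and 124 to 224 CPM, from Klrk1, Klrb1c and Klre1, with Klra8 at 0. Their part in the results was not tested. In bulk RNA, fewer cells that express a gene and less RNA per cell cannot be told apart.

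Most of the measured transcriptome differed between the groups. Of 13819 genes tested, 10381 passed an adjusted p-value of 0.05 (75.1%, edgeR's quasi-likelihood test with Benjamini-Hochberg adjustment), of which 4808 (34.8%) rose and 5573 (40.3%) fell from 0 h to pH 6.6. The levels of the 5 libraries of either group did not overlap for 7093 genes (51.3%). Of the 10381 genes that passed, 1780 (12.9% of genes tested) rose and 2715 (19.6%) fell by 1 or more on the log2 scale, and 123 (0.89%) rose and 384 (2.78%) fell by 3 or more. Large changes were thus more often falls. The median log2 fold change over all genes tested was -0.07. Counts of list members below are read against these shares. Lists and members were chosen with earlier results of these data known, so an excess over the shares is a description and not a test. Antisense genes overlap the exons of Gpr65 (24.7% of bases), Tgm2 (21.8%), Xcl1 (18.7%) and Bid (17.7%), and whether the counting used the strand is not given in the sources used here.

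**Figure D1:**
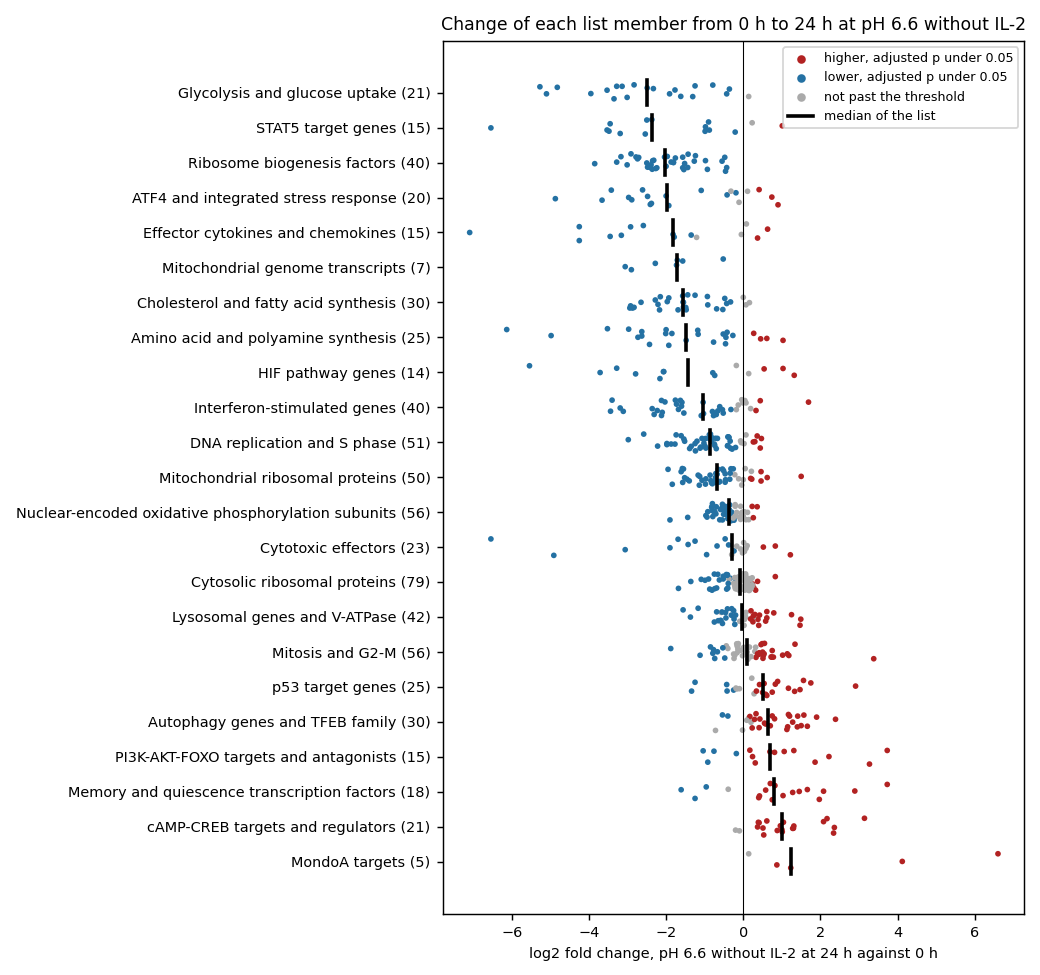
Each point is the log2 fold change of 1 gene between 24 h at pH 6.6 without IL-2 and 0 h, in 23 gene lists with the number of tested members in brackets, coloured by the call, with a black bar at the list's median. Glycolysis (median -2.49), STAT5 targets (-2.37) and ribosome biogenesis (-2.02) lie to the left, while autophagy (0.64), memory transcription factors (0.78), cAMP-CREB (1.00) and MondoA targets (1.23) lie to the right.

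Among genes whose mean log2 CPM reached 3 and that were higher in 5 of 5 replicate pairs, the largest rises were those of Klf10, Bend4, Coq8a, Tnfaip3, Txnip, Bcl6, Ikzf2, Zhx2, Cenpa and Dtx4. Klf10 (ENSMUSG00000037465, chromosome 15, 38291463 to 38300706, minus strand), a transcription factor induced by TGF-β, was at 10.8, 17.6, 18.2, 17.6 and 14 CPM in replicates 1 to 5 at 0 h and at 140, 475, 482, 392 and 407 CPM at pH 6.6. Replicate 1 was the lowest of the acid libraries, yet it was above every 0 h library, for a log2 fold change of 4.53 (standard error 0.29, adjusted p = 2.29e-14). Bend4 (chromosome 5, 67392147 to 67428310, minus strand), a BEN domain protein, went from 24.1, 21.4, 21.9, 27.5 and 26.7 CPM to 559, 635, 649, 391 and 577 CPM. The groups did not overlap, for a log2 fold change of 4.50 (standard error 0.15, adjusted p = 1.98e-22). Tnfaip3, the ubiquitin-editing inhibitor of NF-κB also called A20, was at 78.9, 38.5, 37.3, 61 and 54.3 CPM at 0 h and at 844, 1101, 960, 885 and 974 CPM at pH 6.6, a log2 fold change of 4.15 (standard error 0.16, adjusted p = 1.41e-20). Bcl6, a transcriptional repressor of memory and follicular T cells, was at 9.39, 4.91, 4.94, 8.14 and 6.91 CPM and then at 93.3, 98.7, 98.2, 80 and 83.5 CPM, a log2 fold change of 3.73 (standard error 0.15, adjusted p = 1.49e-20). In both genes every acid library lay above every 0 h library. The others had log2 fold changes of 4.15 for Coq8a, a kinase-like protein of coenzyme Q synthesis, 4.12 for Txnip, 3.47 for Ikzf2, which encodes Helios, 3.43 for Zhx2, 3.38 for Cenpa, the centromeric histone, and 3.38 for Dtx4, an E3 ligase of Notch signaling.

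The genes that fell most by the same rule were Gzmb, Tnfrsf8, Ak4, Hk2, Slc16a3, Srm, Lif, Tnfrsf9, Tgm2 and Prf1. Gzmb (ENSMUSG00000015437, chromosome 14, 56258838 to 56262260, minus strand) encodes granzyme B, the protease that CTLs deliver into target cells. It was at 6323, 7856, 7800, 8916 and 8894 CPM at 0 h and at 81, 90.2, 74.4, 114 and 72.7 CPM at pH 6.6. No acid library came near a 0 h library, for a log2 fold change of -6.54 (standard error 0.21, adjusted p = 1.98e-22). Prf1 (chromosome 10, 61297833 to 61304680, plus strand), the pore-forming perforin, went from 387, 603, 376, 686 and 521 CPM to 13.7, 15.9, 11.1, 29.5 and 17 CPM, a log2 fold change of -4.91 (standard error 0.19, adjusted p = 2.57e-20). Tnfrsf9, the costimulatory receptor 4-1BB, went from 1085, 950, 873, 1368 and 1532 CPM to 38.7, 36.5, 29.7, 41.9 and 36.1 CPM, a log2 fold change of -4.96 (standard error 0.16, adjusted p = 2.16e-22). These groups did not overlap either. Lif, a cytokine of the IL-6 family, was at 78.8, 140, 180, 69.9 and 71.2 CPM at 0 h and at 1.26, 1.34, 1.64, 7.28 and 10.8 CPM at pH 6.6. Replicates 4 and 5 kept the highest acid levels of Lif, which fell by 4.98 on the log2 scale (standard error 0.53, adjusted p = 3.68e-09). Tnfrsf8, which encodes CD30, had a log2 fold change of -5.46, and Tgm2, transglutaminase 2, one of -4.94.

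**Figure D2:**
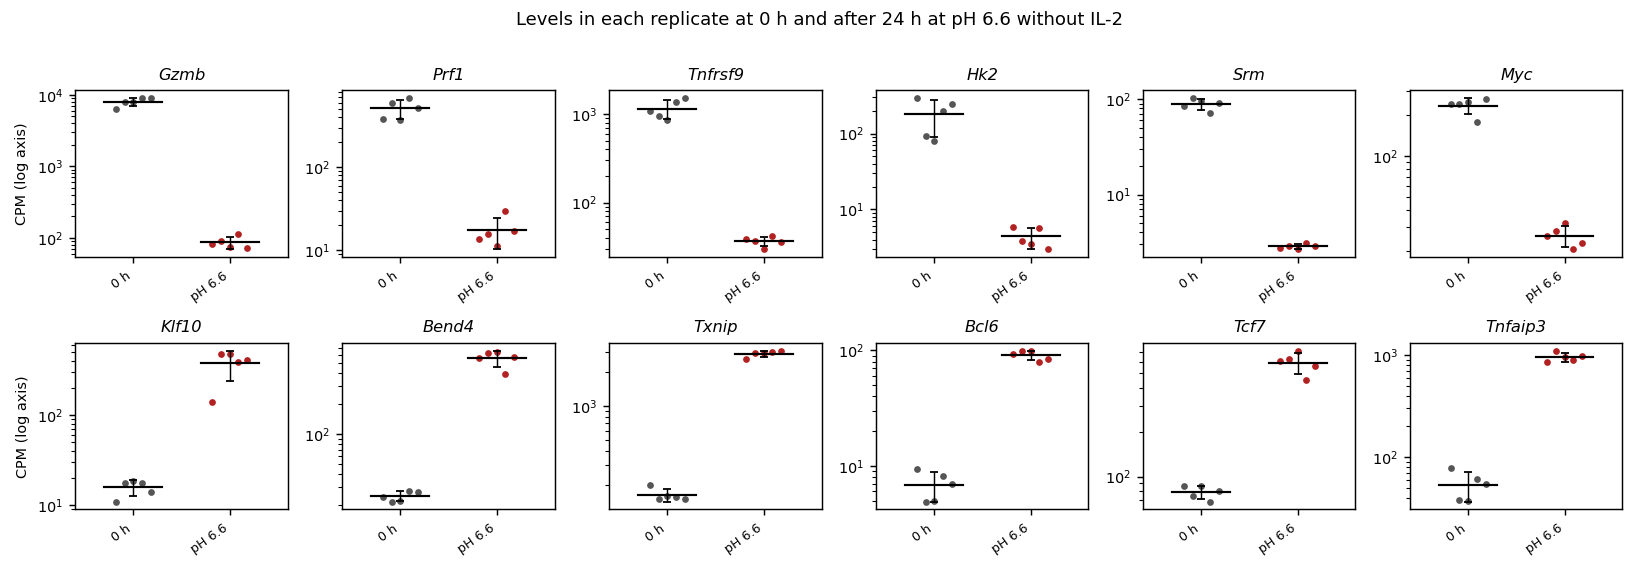
Level of 12 genes in CPM on a log axis in each of the 5 replicates at 0 h (grey) and after 24 h at pH 6.6 without IL-2 (red), with the mean as a line and the SD as an error bar. The 2 groups do not overlap in any panel: Gzmb, Prf1, Tnfrsf9, Hk2, Srm and Myc are lower at pH 6.6, and Klf10, Bend4, Txnip, Bcl6, Tcf7 and Tnfaip3 are higher.

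Receptor genes of the IL-2 pathway moved in both directions, whereas most of the STAT5 targets examined fell. Of 10 tested genes for the IL-2 receptor and its JAK-STAT5 chain, 4 rose and 4 fell, with a median log2 fold change of 0.01. Il2ra, the α chain, went from 571 ± 91.3 to 289 ± 37.9 CPM (SD, n = 5; log2 fold change -0.99), and Il2rb, the β chain, from 1327 ± 310 to 454 ± 39.9 CPM (-1.53). Jak1 rose from 837 ± 108 to 2391 ± 159 CPM (1.52). Of 15 STAT5 target genes, 13 fell and 1 rose, 8 of the 13 by at least 1, and the median was -2.37 against -0.07 over all genes tested. Cish (ENSMUSG00000032578, chromosome 9, 107296026 to 107302784, plus strand), a feedback inhibitor of cytokine receptors that STAT5 induces, was at 585, 734, 664, 514 and 483 CPM at 0 h and at 71.1, 105, 103, 130 and 132 CPM at pH 6.6. All acid libraries were below all 0 h libraries, for a log2 fold change of -2.50 (standard error 0.18, adjusted p = 7.43e-14). Among further targets, Ccnd2 and Ccnd3, cyclins that start the cell cycle, had log2 fold changes of -2.54 and -2.45, and Bcl2, the survival factor, one of -2.37. Socs2, another feedback inhibitor, went from 115 ± 15.6 to 61.7 ± 9.1 CPM (SD, n = 5; log2 fold change -0.90). Pim1, a kinase gene, was at 364 ± 24 and 316 ± 36.7 CPM, and its small fall (-0.21, adjusted p = 0.0154) was lost without replicate 1 (adjusted p = 0.132), without replicate 5 (0.0567), and in 4 other alternatives. The 1 target that rose was Tnfrsf4, the costimulatory receptor OX40 (5.88 ± 1.21 to 11.8 ± 1.4 CPM, log2 fold change 1.01). The letters TTCNNNGAA, the palindrome that STAT5 dimers bind, were searched on both strands in promoter windows of 300 bases, from 250 before to 50 after the start. They were present in 5 of the 12 tested STAT5 targets with a window (41.7%), in 8.21% of all tested genes with a window and in 8.3% of all windows. STAT5 targets with the letters had a median log2 fold change of -2.5 (n = 5) and those without one of -0.99 (n = 7), in small sets. For Cish the window is set at a RefSeq start and lies wholly within the gene span given above. The Cish window is printed because its start region holds 2 such matches, in capitals, beside the fall of its transcript (GRCm38.p6, chr9:107296409-107296708, plus strand, RefSeq):
Cish: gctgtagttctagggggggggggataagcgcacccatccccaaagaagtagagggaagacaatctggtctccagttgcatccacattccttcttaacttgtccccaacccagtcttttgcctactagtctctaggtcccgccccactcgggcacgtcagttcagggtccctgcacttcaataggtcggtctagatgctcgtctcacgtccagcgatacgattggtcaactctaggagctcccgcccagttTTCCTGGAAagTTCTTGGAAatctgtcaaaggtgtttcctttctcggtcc
A match is a description of letters, and whether STAT5 bound there was not measured.

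Cytotoxic and cytokine genes moved unevenly. Of 23 cytotoxic effector genes, 12 fell and 3 rose, with a median log2 fold change of -0.30, with Gzmb and Prf1 at its far end. Gzma, a granzyme of a different specificity, went from 2338 ± 884 to 1175 ± 190 CPM (SD, n = 5; log2 fold change -0.95), and Gzmc from 473 ± 134 to 185 ± 85.3 CPM (-1.43), where the groups overlapped. Serpinb6b, a serpin of granzyme-bearing cells, rose from 219, 162, 194, 250 and 282 CPM to 470, 553, 540, 490 and 519 CPM, without overlap (1.22, adjusted p = 1.43e-08). Of 15 tested genes for effector cytokines and chemokines, 10 fell, each by at least 1, and 2 rose, with a median of -1.82. Ifng, the cytokine interferon-γ, went from 11.4 ± 3.71 to 0.609 ± 0.26 CPM (SD, n = 5; log2 fold change -4.25), although another gene shares 25.9% of its exon bases on the same strand. Lta, lymphotoxin-α, had a log2 fold change of -3.45 and Ccl3, a chemokine, one of -2.92 from 2.31 ± 0.713 CPM. Ccl5, a chemokine typical of memory CD8+ T cells, rose from 48.4 ± 6.06 to 75.9 ± 11.8 CPM (0.63). Xcl1, the lymphotactin gene, had overlapping groups, with 23.1 CPM in replicate 1 at 0 h against 6.81 to 8.82 CPM in the others, and a log2 fold change of -1.35.

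Transcription factors of effector differentiation and inhibitory receptors did not move as a block. Of 14 effector transcription factor genes, 7 fell and 4 rose (median log2 fold change -0.36, or 0.04 in a fit of only these groups). The largest rise was that of Ikzf2, given above (3.47). Tbx21, which encodes T-bet, and Prdm1, which encodes Blimp-1, both had -0.88, Eomes had -1.61, Irf4 -1.08 and Irf8 -2.74, and in each of these the groups did not overlap. Of 13 tested genes for inhibitory receptors and Tox, 8 fell and 4 rose (median -0.60). Cd160 went from 130 ± 18 to 19.5 ± 4.1 CPM (SD, n = 5; -2.75) and Lag3 from 64.9 ± 12.9 to 37.2 ± 9.03 CPM (-0.84). Those that rose included Pdcd1, which encodes PD-1 (15 ± 5.21 to 50.9 ± 16.5 CPM, 1.77), Ctla4 (192 ± 51 to 547 ± 60.3 CPM, 1.5) and Nt5e, the adenosine-producing ectoenzyme CD73 (93.9 ± 19.6 to 475 ± 95.2 CPM, 2.32).

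Genes for making ribosomes fell, and so did Myc, their activator. Myc was at 241, 240, 250, 178 and 260 CPM at 0 h and at 26, 28.2, 32.5, 20.8 and 23 CPM at pH 6.6, a log2 fold change of -3.16 (standard error 0.12, adjusted p = 8.37e-21). Its relative Mycn went from 75.5 ± 11.5 to 7 ± 1.31 CPM (SD, n = 5; -3.44). The acid groups of both genes lay wholly below their 0 h groups. Of the 11 genes of the MYC, MAX and MXD network, 5 rose and 4 fell, the rises including the antagonists Mxd4 (97.1 ± 17.4 to 356 ± 16.9 CPM, 1.89) and Mxi1 (88.5 ± 38.8 to 186 ± 20 CPM, 1.09). All 40 ribosome biogenesis factors examined fell, 34 of them by at least 1, with a median of -2.02. The deepest fall was that of Bysl (-3.85), and Ncl, the nucleolin gene, was among the shallowest (-0.46). Nop56, a core protein of the complexes that methylate ribosomal RNA, went from 147, 260, 269, 153 and 178 CPM to 32.5, 42.7, 42, 45.9 and 47.9 CPM (-2.27, adjusted p = 1.38e-14). Every acid library was lower, and the same held for Rrs1, an assembly factor of the large subunit (-2.50). The letters CACGTG, the E-box of MYC and related factors, were in 9 of the 35 windows of these genes (25.7%), against 11.6% of tested genes and 7.15% of all windows. Ribosome biogenesis genes with these letters had a median log2 fold change of -1.81 (n = 9), and those without fell further (-2.25, n = 26). Of 79 genes for the cytosolic ribosomal proteins themselves, 22 fell and 5 rose, with a median of -0.08, and their mean level at 0 h depended on replicate 5 (8.58 log2 CPM, against 7.83 to 8.03 in the other 4).

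Most genes for making amino acids fell, with exceptions in polyamine metabolism. Of 25 genes for amino acid and polyamine synthesis, 21 fell and 4 rose (median log2 fold change -1.48). Srm, spermidine synthase, was at 85, 103, 96.3, 71.3 and 91.1 CPM at 0 h and at 2.73, 2.91, 2.68, 3.07 and 2.87 CPM at pH 6.6, a log2 fold change of -4.98 (standard error 0.20, adjusted p = 2.69e-20). Its acid levels were nearly the same in all replicates. Odc1, the enzyme of the preceding step, rose from 227 ± 41.7 to 347 ± 19.7 CPM (SD, n = 5; 0.61), and Smox, which oxidizes spermine, from 32.1 ± 7 to 66.1 ± 10.1 CPM (1.03). Amino acid transporters were mixed: of 16 genes, 4 rose, among them Slc43a2, 7 fell and 5 did not pass (median -0.36, or 0.01 with the stricter filter). Slc7a5, the leucine carrier of the LAT1 transporter, went from 331 ± 42.2 to 21.6 ± 11.1 CPM (-4.03), while its partner Slc3a2 was at 251 ± 53.7 and 269 ± 6.09 CPM (0.12, adjusted p = 0.226). Slc1a5, the glutamine carrier ASCT2, fell from 504 ± 55 to 132 ± 15.4 CPM (-1.94). Of 20 tested genes of the ATF4 and integrated stress response, 14 fell and 3 rose (median -1.97), among them Asns, asparagine synthetase (138 ± 26.3 to 13 ± 3.24 CPM, -3.42), Mthfd2, a mitochondrial one-carbon enzyme (-1.93), Trib3 (-2.38) and Chac1, which degrades glutathione (-3.66). Atf4 itself was at 488 ± 67.5 and 430 ± 58.4 CPM in overlapping groups (-0.19, adjusted p = 0.0255). Ddit3 did not pass (-0.11, adjusted p = 0.514), and Eif2ak3 rose (0.74). Atf3 was at 3.79 ± 1.09 and 5.13 ± 1.73 CPM, in overlapping groups, and its rise (0.41, adjusted p = 0.0119) was lost without replicate 4 (adjusted p = 0.0668) and without the replicate block (adjusted p = 0.2).

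Glycolysis had the lowest median of the metabolic lists. Of its 21 genes, 20 fell, 17 by at least 1, and none rose, with a median of -2.49. Hk2, hexokinase 2, which traps glucose in the cell, was at 294, 93.3, 80.8, 199 and 244 CPM at 0 h and at 5.93, 3.79, 3.54, 5.77 and 3.01 CPM at pH 6.6, a log2 fold change of -5.27 (standard error 0.27, adjusted p = 6.13e-17). Replicates 2 and 3 were the lowest at 0 h, yet far above every acid library. Ldha, which makes lactate from pyruvate, went from 3231 ± 586 to 318 ± 31 CPM (SD, n = 5; -3.35), and Pkm, the pyruvate kinase of activated cells, from 3851 ± 505 to 397 ± 37.5 CPM (-3.28), while another gene overlaps 15.3% of its exon bases. Slc2a1, the glucose transporter GLUT1, fell from 287 ± 168 to 24.1 ± 4.82 CPM (-3.53), and Slc16a3, the lactate and proton exporter MCT4, from 220 ± 97.6 to 6.63 ± 0.782 CPM (-5.10). Of 14 HIF pathway genes, 9 fell and 3 rose (median -1.43). Among them Vegfa fell (-2.79), whereas Hif1a itself rose from 364 ± 124 to 893 ± 120 CPM (1.32). Ak4, a mitochondrial adenylate kinase outside this list, fell as well (-5.38).

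Targets of MondoA, a sensor of phosphorylated sugars, went the other way, with 4 of 5 tested genes higher and none lower. Txnip (ENSMUSG00000038393, chromosome 3, 96557957 to 96561883, plus strand), an arrestin that restrains glucose uptake, was at 202, 151, 161, 157 and 150 CPM at 0 h and at 2558, 2889, 2916, 2956 and 3043 CPM at pH 6.6, a log2 fold change of 4.12 (standard error 0.10, adjusted p = 1.99e-25). Its relative Arrdc4 had at most 0.235 CPM in any 0 h library and was at 12.9, 10.3, 14.2, 13.6 and 13 CPM at pH 6.6. Both genes separated the groups fully. An antisense gene overlaps 19.4% of the exon bases of Txnip.

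Cholesterol and fatty acid synthesis fell as well, with 27 of 30 genes lower, none higher and a median of -1.55. Sqle, a rate-limiting step of sterol synthesis, was at 112, 190, 190, 169 and 177 CPM at 0 h and at 30, 42.8, 42.6, 36.7 and 35.8 CPM at pH 6.6 (-2.15, standard error 0.11, adjusted p = 1.77e-17), without overlap and with replicate 1 the lowest at 0 h. Hmgcs1, an earlier enzyme of the pathway, had a log2 fold change of -1.25 and Fasn, fatty acid synthase, one of -2.21. Abca1, which exports cholesterol, was at 2.15 ± 0.711 and 2.41 ± 0.73 CPM (SD, n = 5) and did not pass the test (0.16, adjusted p = 0.467).

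Transcripts of the mitochondrial genome, which encodes subunits of the respiratory chain, fell. Of 13 protein-coding mitochondrial genes, 7 passed the filter on low counts. All 7 fell, 6 by at least 1, with a median log2 fold change of -1.73. The cytochrome b gene mt-Cytb was at 2935, 2429, 3294, 2534 and 2106 CPM at 0 h and at 492, 683, 562, 506 and 482 CPM at pH 6.6 (-2.28, adjusted p = 2.21e-17), and mt-Nd1, a subunit of complex I, went from 3012 ± 579 to 362 ± 61.3 CPM (SD, n = 5; -3.06). The groups did not overlap in either gene. The cytochrome oxidase gene mt-Co1 was at 10241 ± 2453 and 7082 ± 1461 CPM in overlapping groups (-0.52, adjusted p = 0.000566), with 48.9% of its 50-base windows found in no other transcript, so its level is uncertain. Copies of mitochondrial DNA in the nuclear genome can also remove reads from these genes, since reads with several places were not counted. Of 56 nuclear-encoded subunits of oxidative phosphorylation, 36 fell and 3 rose (median -0.36), from Atp5g1 (17.2 ± 3.44 to 4.6 ± 0.827 CPM, -1.90) to Sdhd (130 ± 27.1 to 166 ± 14.6 CPM, 0.36). Of 50 mitochondrial ribosomal proteins, 38 fell and 6 rose (median -0.68), between Mrps2 (-1.95) and Mrpl9 (1.5).

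**Figure D3:**
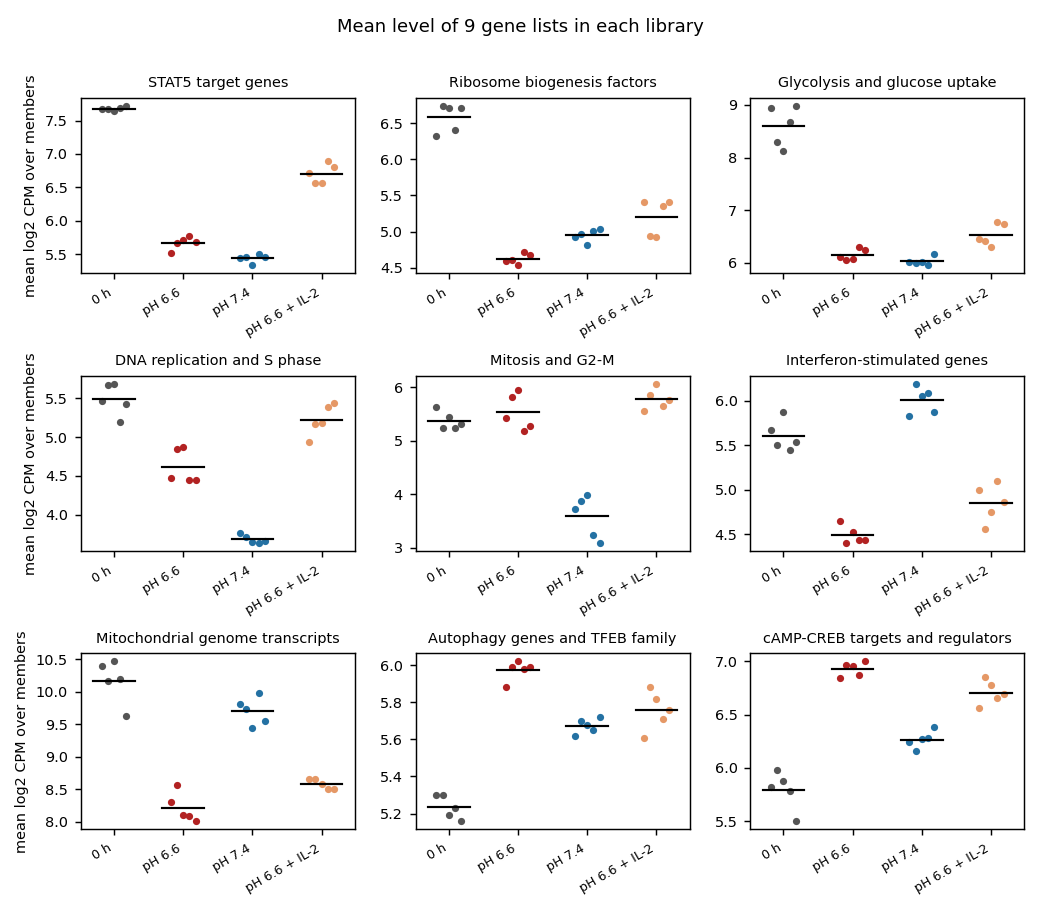
Mean log2 CPM over the members of 9 gene lists in each of 5 libraries at 0 h, at 24 h at pH 6.6 and at pH 7.4 without IL-2, and at 24 h at pH 6.6 with IL-2; the line is the group mean. Mitosis genes averaged 5.38 at 0 h, 5.53 at pH 6.6 and 3.58 at pH 7.4, and interferon-stimulated genes 5.60, 4.49 and 6.0.

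Most DNA replication genes fell, whereas mitosis genes had no common direction. Of 51 genes for DNA replication and S phase, 42 fell and 5 rose, with a median log2 fold change of -0.85. Of 56 genes for mitosis and G2-M, 21 rose, 9 fell and 26 did not pass the test, with a median of 0.09. The mean log2 CPM of the mitosis genes rose from 0 h to pH 6.6 in replicates 2 (5.24 to 5.82) and 3 (5.44 to 5.95). It was lower at pH 6.6 in replicates 1 (5.64 to 5.43), 4 (5.24 to 5.19) and 5 (5.31 to 5.27). Cdc6 (ENSMUSG00000017499, chromosome 11, 98907801 to 98923940, plus strand), which loads the replicative helicase onto origins, was at 22.5, 29.1, 28.8, 17.5 and 24 CPM at 0 h and at 5.97, 9.87, 10.4, 4.66 and 4.93 CPM at pH 6.6, a log2 fold change of -1.77 (standard error 0.17, adjusted p = 5.5e-11). E2f1, the transcription factor that drives S phase genes, went from 24 ± 5.71 to 4 ± 0.709 CPM (SD, n = 5; -2.58), Pcna, the sliding clamp, from 195 ± 36.1 to 63.6 ± 8.68 CPM (-1.61), and Mcm5, a subunit of the helicase, from 113 ± 25.7 to 57.2 ± 11.7 CPM (-0.98). None of these groups overlapped, whereas those of Rrm2, a subunit of ribonucleotide reductase, did (88.6 ± 19.3 and 53.8 ± 19.2 CPM, -0.74). Hells, a chromatin remodeler of the same list, rose (76.8 ± 13 to 107 ± 24.9 CPM, 0.47).

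Among mitosis genes, Kif11 (ENSMUSG00000012443, chromosome 19, 37376403 to 37421859, plus strand), the motor that separates spindle poles, was at 121, 108, 123, 105 and 92.9 CPM at 0 h and at 188, 308, 336, 158 and 176 CPM at pH 6.6. Replicates 2 and 3 were the highest at pH 6.6, all 5 were above the 0 h libraries, for a log2 fold change of 1.02 (standard error 0.18, adjusted p = 6.65e-06). Cenpa went from 84.6, 48.3, 52.5, 45.8 and 55.1 CPM to 528, 636, 654, 592 and 597 CPM (3.38, adjusted p = 9.02e-20). Mki67, the proliferation antigen Ki-67, was at 303 ± 61.8 and 331 ± 92.6 CPM (SD, n = 5) and did not pass the test (0.09, adjusted p = 0.671), and neither did Ccnb1 (-0.24, adjusted p = 0.164), Ccnb2 (-0.25, 0.233) and Plk1 (-0.16, 0.314). Cdk1, the mitotic kinase, fell from 55.2 ± 9 to 32.5 ± 8.08 CPM (-0.79), and its partner Cks1b from 33.1 ± 5.55 to 9 ± 1.53 CPM (-1.88). The inhibitor Cdkn1b, or p27, rose from 186 ± 66.2 to 638 ± 88.8 CPM (1.77), and Cdkn2a fell from 20.1 ± 4.43 to 3.22 ± 0.726 CPM (-2.64).

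Promoter windows of the cell cycle lists were searched for different letters in each list, so no motif was compared between the lists. Of the letters searched, TTTCGCGC, TTTGGCGC or TTTCCCGC on either strand, forms of the E2F site, were in 17 of the 41 windows of tested replication genes (41.5%), against 4.21% of tested genes and 1.84% of all windows. TTTGAA, the cell cycle homology region (CHR) of late cell cycle genes, was in 32 of the 45 windows of tested mitosis genes (71.1%), against 14.4% and 17.9%, and CCAAT, the site of NF-Y, in 33 of 45 (73.3%), against 42.8% and 37.4%. Replication genes with E2F letters had a median log2 fold change of -0.41 (n = 17) and those without one of -1.03 (n = 24), while all tested genes had -0.12 with (n = 420) and -0.08 without (n = 9557). Mitosis genes had medians of 0.10 with (n = 32) and 0.12 without (n = 13) a CHR. The Cdc6 window is set at a RefSeq start and lies wholly within the gene span given above. Capitals mark the E2F letters in Cdc6 (GRCm38.p6, chr11:98907901-98908200, plus strand), the CHR in Kif11 (chr19:37376132-37376431, plus strand) and the CHR and CCAAT letters in Ccnb2 (chr9:70421505-70421804, minus strand), read in the direction of the gene from RefSeq:
Cdc6: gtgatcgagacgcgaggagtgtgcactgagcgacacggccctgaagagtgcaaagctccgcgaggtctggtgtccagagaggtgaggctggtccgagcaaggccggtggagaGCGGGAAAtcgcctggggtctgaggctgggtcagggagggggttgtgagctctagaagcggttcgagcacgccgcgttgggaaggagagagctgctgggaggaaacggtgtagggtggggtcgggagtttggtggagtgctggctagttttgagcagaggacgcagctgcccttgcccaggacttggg
Kif11: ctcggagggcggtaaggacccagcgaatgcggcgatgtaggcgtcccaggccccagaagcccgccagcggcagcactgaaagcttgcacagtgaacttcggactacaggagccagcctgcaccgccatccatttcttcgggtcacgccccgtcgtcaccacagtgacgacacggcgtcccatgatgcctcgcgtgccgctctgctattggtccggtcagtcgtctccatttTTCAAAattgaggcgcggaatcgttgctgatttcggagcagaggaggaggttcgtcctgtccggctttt
Ccnb2: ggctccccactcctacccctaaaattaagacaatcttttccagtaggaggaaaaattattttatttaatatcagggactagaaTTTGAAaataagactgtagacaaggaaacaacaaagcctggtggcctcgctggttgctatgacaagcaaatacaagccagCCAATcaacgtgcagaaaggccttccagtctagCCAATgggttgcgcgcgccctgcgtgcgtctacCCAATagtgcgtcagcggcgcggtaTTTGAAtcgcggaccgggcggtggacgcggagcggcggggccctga

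**Figure D4:**
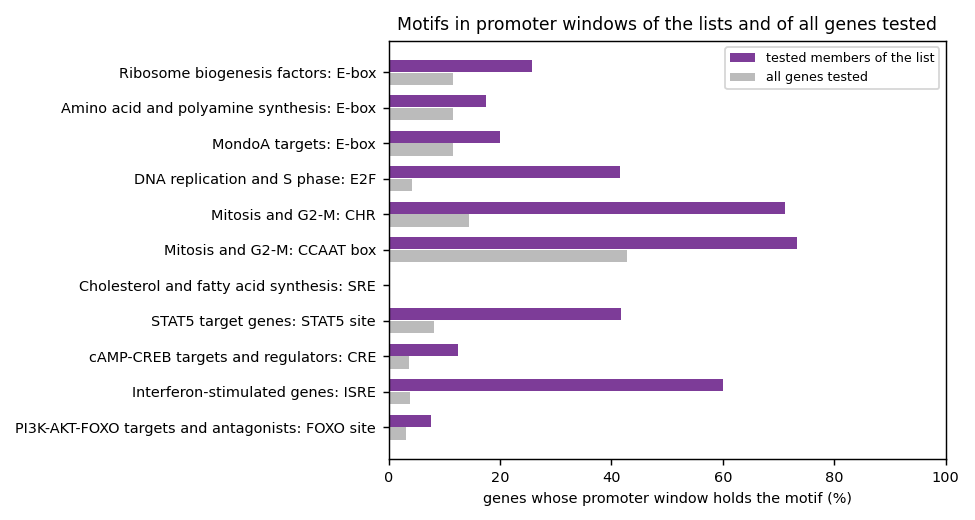
Share (%) of promoter windows, 250 bases before to 50 after the start, that hold a motif on either strand, for tested members of each list (purple) and all tested genes (grey). CHR letters are in 71.1% of mitosis genes, ISRE letters in 60% of interferon-stimulated genes and E2F letters in 41.5% of replication genes. SRE letters are in 0 of 20 windows of cholesterol and fatty acid synthesis genes and in 0.19% of all tested genes. At that share, 20 windows are too few to tell whether the list differs.

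Interferon-stimulated genes, which defend cells against viruses, were lower at pH 6.6. Of 40 genes, 30 fell, 21 by at least 1, and 3 rose, with a median of -1.04. Rtp4 went from 34.6, 33.7, 53.4, 28.9 and 47.2 CPM to 9.09, 6.63, 8.59, 6.87 and 8.6 CPM (-2.31, adjusted p = 3.21e-13), and Iigp1, an interferon-inducible GTPase, from 132, 151, 258, 161 and 135 CPM to 49.6, 31.5, 38.6, 36.5 and 38.8 CPM (-2.12, adjusted p = 5.66e-08). Each acid library was below each 0 h library in both genes. Isg15, a ubiquitin-like modifier, had -3.40, Ifit3 had -2.03 at 2.85 ± 0.908 and 0.715 ± 0.41 CPM (SD, n = 5), and Irf7, a transcription factor of the response, -0.66. Of the 50-base windows of Ifit3, 48.8% were unique, so its level is uncertain. Gbp5, a guanylate-binding protein, rose from 34.7 ± 5.3 to 112 ± 15 CPM (1.69). Outside this list, the receptor chain Ifnar1 rose from 152 ± 31.7 to 402 ± 56.7 CPM (1.42). The interferon-stimulated response element (ISRE) was searched as TTTC, any 2 bases and TTTC again. It was in 18 of the 30 windows of the interferon-stimulated genes (60%), against 3.87% of tested genes and 3.44% of all windows. The median log2 fold change of the interferon-stimulated genes was nearly the same with (-0.71, n = 18) and without the letters (-0.73, n = 12). The Ifit3 window is printed with its 2 matches in capitals (GRCm38.p6, chr19:34583279-34583578, plus strand, RefSeq):
Ifit3: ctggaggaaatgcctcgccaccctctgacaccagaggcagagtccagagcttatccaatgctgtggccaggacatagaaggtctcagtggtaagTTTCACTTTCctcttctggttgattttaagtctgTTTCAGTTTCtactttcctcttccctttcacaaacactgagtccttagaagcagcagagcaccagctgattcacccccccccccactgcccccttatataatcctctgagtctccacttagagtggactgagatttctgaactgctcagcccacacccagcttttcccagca

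Most transcription factors of quiescent and memory T cells rose. Of 18 examined, 14 rose and 3 fell, with a median log2 fold change of 0.78. Tcf7 (ENSMUSG00000000782, chromosome 11, 52252371 to 52283014, minus strand), which encodes TCF-1, was at 85.8, 74.3, 86.9, 67.6 and 80.1 CPM at 0 h and at 606, 624, 711, 453 and 560 CPM at pH 6.6, a log2 fold change of 2.89 (standard error 0.09, adjusted p = 1.98e-22). Bach2 had 1.45 and Foxo1 0.40. The deepest fall of the list was that of Eomes, given above, and Klf2, which drives exit from tissues, fell from 25.6 ± 7.39 to 10.5 ± 1.15 CPM (SD, n = 5; -1.25). Its target S1pr1, the egress receptor, rose nonetheless (53.4 ± 8.49 to 161 ± 35 CPM, 1.54). Of 18 tested genes for lymph node homing and egress, 6 rose and 9 fell (median -0.14). Ccr7, the homing chemokine receptor, went from 129, 42, 47.9, 78.3 and 135 CPM to 229, 293, 329, 257 and 324 CPM (1.74, adjusted p = 6.76e-09), and Itga4 rose by 1.95 on the log2 scale. Il7r, the receptor chain for the survival cytokine IL-7, was at 3.99, 1.87, 2.53, 3.62 and 2.19 CPM and then at 18.6, 9.18, 7.22, 8.51 and 7.7 CPM (1.81, adjusted p = 5.22e-11), with replicate 1 the highest of both groups. Slamf6, a receptor of stem-like T cells, had 1.86.

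Targets and antagonists of PI3K, AKT and FOXO rose in 11 of 15 genes and fell in 4 (median log2 fold change 0.69), with Pik3ip1, an inhibitor of PI3K, at 63.5, 48.2, 42.8, 51.3 and 57.1 CPM and then at 240, 233, 263, 253 and 231 CPM (2.22, adjusted p = 5.39e-20). Autophagy genes rose in 23 of 30 and fell in 2 (median 0.64). Ulk1, the kinase that starts autophagy, was at 32.4, 36.4, 32.5, 26.8 and 23.5 CPM and then at 121, 174, 171, 160 and 167 CPM (2.39, adjusted p = 1.85e-18). Neither gene had overlapping groups. Map1lc3b, which coats the autophagosome, had 1.15 and the cargo receptor Sqstm1 0.75, while Tfeb, a master regulator of lysosomes, did not pass (0.20, adjusted p = 0.121).

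Of 21 targets and regulators of cyclic AMP and CREB signaling, 19 rose and none fell, with a median log2 fold change of 1.00. From 0 h to pH 7.4, 14 of them rose and 5 fell (median 0.61). These are transcript levels, and cyclic AMP itself was not measured. For the proteins CREB and CREM, the study reported neither phosphorylation nor accumulation at low pH. Nr4a1 (ENSMUSG00000023034, chromosome 15, 101254269 to 101274795, plus strand), the orphan receptor Nur77, was at 2.93, 2.67, 2.45, 1.06 and 1.68 CPM at 0 h and at 13.7, 23.6, 23.9, 17 and 18.5 CPM at pH 6.6 (3.14, standard error 0.26, adjusted p = 1.32e-12). Every acid library was above every 0 h library. Pde4b, a phosphodiesterase that degrades cyclic AMP, rose from 35.9 ± 7.24 to 184 ± 23.8 CPM (SD, n = 5; 2.36), Rgs2, which restrains G proteins, from 8.43 ± 1.11 to 38.2 ± 1.84 CPM (2.17), and the clock gene Per1 from 33 ± 10.3 to 141 ± 19.1 CPM (2.08). Nr4a3 (1.11), the kinase Sik1 (1.04) and the repressor Crem (0.51) rose less. The letters TGACGTCA of the CREB site were in 2 of the 16 windows (12.5%), against 3.63% of tested genes and 1.79% of all windows. In another list, that of NR4A and immediate early factors, 13 of 24 fell and 8 rose (median -0.43). Fosl2 rose from 225 ± 27.5 to 518 ± 77.8 CPM (1.2), and Nfkbia, the inhibitor of NF-κB, from 33.3 ± 5.78 to 243 ± 67.5 CPM (2.84). Jund fell from 484 ± 94.7 to 49.8 ± 14.8 CPM (-3.30), with 52.6% of its exon bases covered by a gene on the opposite strand. Egr1 was at 204, 362, 311, 71.3 and 39.6 CPM at 0 h and at 21.5, 16.8, 21.9, 130 and 101 CPM at pH 6.6. Replicates 1 to 3 were lower in acid and replicates 4 and 5 higher, so that its log2 fold change of -2.59 (adjusted p = 0.000323) held in 3 of 5 pairs and did not pass in a fit of these groups alone (-2.0, adjusted p = 0.307).

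Of 16 tested acid-base transporters and proton sensors, 5 rose and 11 fell (median log2 fold change -0.65). Gpr65, a receptor that senses protons, was at 51.5, 52.4, 57.1, 57.7 and 56.6 CPM at 0 h and at 23.4, 20.1, 18.4, 18.7 and 19.7 CPM at pH 6.6 (-1.47, standard error 0.09, adjusted p = 1.03e-15). Gpr132, of the same receptor family, went from 127, 108, 113, 97.5 and 106 CPM to 370, 414, 451, 409 and 423 CPM (1.90, standard error 0.08, adjusted p = 1.87e-19). The relatives thus moved in opposite directions, both without overlap. In neutral medium they moved the same ways from 0 h, Gpr65 by -0.93 and Gpr132 by 1.39. Against pH 7.4, the acid libraries differed by -0.53 in Gpr65 and by 0.51 in Gpr132. The list median was -0.68 from 0 h to pH 7.4. Against pH 7.4 it was -0.01, with 4 of 16 genes higher and 7 lower in acid. Slc4a7, a bicarbonate importer that counters acid, rose from 0 h at pH 6.6 (40.1 ± 13.8 to 106 ± 11.5 CPM, 1.41). It also rose from 0 h at pH 7.4 (1.17), and its difference against pH 7.4 did not pass the test (0.24, adjusted p = 0.178).

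Death and survival genes of the BCL2 family were mixed, with 6 of 15 higher and 7 lower (median log2 fold change -0.17). Bcl2l11, the death inducer BIM, went from 234, 363, 363, 275 and 252 CPM to 1248, 1390, 1426, 1026 and 1239 CPM (2.09, adjusted p = 5.78e-16), and Bbc3, or PUMA, from 42.3 ± 16.9 to 93.6 ± 9.14 CPM (SD, n = 5; 1.17). Bid fell from 27.7 ± 2.05 to 4.66 ± 0.743 CPM (-2.58) and the survival gene Bcl2l1, or BCL-XL, from 105 ± 11.5 to 42.3 ± 7.45 CPM (-1.31), whereas Mcl1 rose slightly (426 ± 54.9 to 520 ± 25.4 CPM, 0.29). Targets of p53 rose in 15 of 25 and fell in 5 (median 0.50), with Gadd45b at 2.91, Trp53inp1 at 1.75 and Mdm2 at 0.54. Cdkn1a, which encodes p21, was at 301 ± 93.1 and 432 ± 119 CPM in overlapping groups (0.50, adjusted p = 0.00173), and did not pass without the replicate block (adjusted p = 0.0711).

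To see which of these levels differed with pH alone, the acid libraries were set against those kept for 24 h without IL-2 at pH 7.4. Both groups are compared with the same 0 h libraries, so their changes from 0 h share those controls and are given side by side. Against pH 7.4, 9258 genes passed the test (67%), 4367 higher (31.6%) and 4891 lower (35.4%) at pH 6.6, and from 0 h to pH 7.4 it was 10398 (75.2%), 5103 higher (36.9%) and 5295 lower (38.3%). By 1 or more on the log2 scale, 6.97% of genes were higher and 13.5% lower at pH 6.6, and the levels of both groups did not overlap for 47.4%. The median over all genes tested was -0.03 against pH 7.4 and -0.01 from 0 h to pH 7.4. Several of the genes that fell most from 0 h fell steeply at pH 7.4 as well. Gzmb had a log2 fold change of -6.08 from 0 h to pH 7.4, and its levels of 86.5 ± 16.9 and 124 ± 52.1 CPM (SD, n = 5) at pH 6.6 and pH 7.4 differed by -0.46 (adjusted p = 0.0164). The differences of Hk2 (-0.40, standard error 0.27, adjusted p = 0.195), Slc16a3 (0.07, adjusted p = 0.889) and Txnip (0.15, adjusted p = 0.132) between the pH values did not pass the test. Glycolysis had a median of 0.15 against pH 7.4, with 9 of 21 genes higher and 4 lower, and ribosome biogenesis one of -0.33, with 21 of 40 lower and 5 higher. Myc was lower in neutral medium (16.2 ± 3.36 CPM) than in acid (26.1 ± 4.56 CPM, 0.69, adjusted p = 6.38e-06), and so was Cish (49.9 ± 14 against 108 ± 24.8 CPM, 1.11, adjusted p = 1.55e-06).

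Mitosis, interferon and mitochondrial genes had the list medians farthest from 0 against pH 7.4. Of 56 mitosis genes, 54 were higher in acid, 50 by at least 1 (median log2 difference 2.02), and none was lower, while 51 of them fell and 2 rose from 0 h to pH 7.4 (median -2.0). Kif11 was at 25.2, 30.8, 29.9, 17.5 and 12.7 CPM at pH 7.4, below all 0 h and all pH 6.6 libraries (3.32, standard error 0.20, adjusted p = 5.19e-15), and Mki67 was at 106, 133, 143, 77.7 and 64.4 CPM (1.67, adjusted p = 3.76e-09). Neither overlapped with pH 6.6. Of 51 replication genes, 41 were higher and 2 lower at pH 6.6 (median 0.72), with Cdc6 at 0.914 ± 0.29 CPM at pH 7.4 (2.94, adjusted p = 1.98e-12). Of 40 interferon-stimulated genes, 35 were lower at pH 6.6 and none higher (median -1.44), while 24 rose and 7 fell from 0 h to pH 7.4 (median 0.46). Iigp1 was at 464, 727, 497, 857 and 432 CPM at pH 7.4, against at most 49.6 CPM at pH 6.6 (-3.93, standard error 0.29, adjusted p = 2.36e-12). Ifit3 was at 9.11, 13.7, 12.6, 10.1 and 11.3 CPM at pH 7.4 (-4.08, adjusted p = 7.11e-15). These acid levels lay below both other groups. All 7 mitochondrial transcripts were lower at pH 6.6 (median -1.70), with mt-Cytb at 2259 ± 390 CPM at pH 7.4 (-2.05, adjusted p = 1.57e-15), and 3 of the 7 fell from 0 h to pH 7.4 (median -0.24). Effector cytokines were lower in 12 of 15 and higher in 2 (median -1.26), with Ifng at 7.18 ± 4.23 CPM at pH 7.4 (-3.47).

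**Figure D5:**
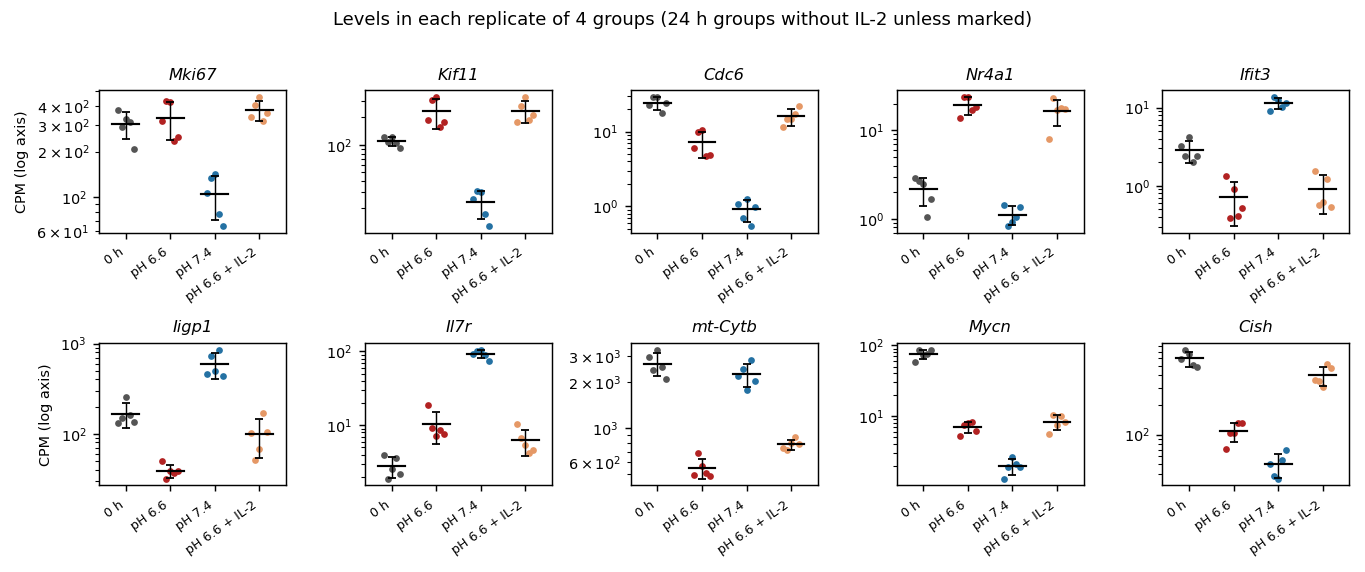
Level of 10 genes in CPM on a log axis in each of 5 replicates at 0 h (grey), at 24 h at pH 6.6 (red) and pH 7.4 (blue) without IL-2, and at 24 h at pH 6.6 with IL-2 (orange), with the mean and SD. Il7r averaged 10.2 CPM at pH 6.6 and 92.4 CPM at pH 7.4, and Nr4a1 19.3 and 1.12 CPM.

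Of the 18 memory transcription factors, 4 were higher and 6 lower at pH 6.6, with a median of -0.06, shares no larger than over all genes. Bcl6 (0.66) and the homing receptor gene Ccr7 (1.01) were higher, and Tcf7 (-0.55), Slamf6 (-1.73) and Itga4 (-0.85) lower. Il7r was at 91.7, 100, 106, 89.8 and 74.9 CPM at pH 7.4, and its difference of -3.27 (standard error 0.16, adjusted p = 1.6e-17) stood beside rises from 0 h of 1.81 at pH 6.6 and 5.08 at pH 7.4. Nr4a1 was higher at pH 6.6 by 4.07 (standard error 0.28, adjusted p = 6.76e-14), with 0.825 to 1.42 CPM at pH 7.4. Of the 21 cAMP-CREB targets and regulators, 14 were higher and 5 lower at pH 6.6 (median 0.46). Autophagy genes were higher in 21 of 30 and lower in 2 (median 0.27). By the naming rule, the largest rises against pH 7.4 were those of Kif11, Fosl2 (3.27), Cenpa (3.23), Tspoap1 (3.21) and Bend4 (3.14), and the largest falls those of Serpina3f (-3.96), Iigp1, Spo11 (-3.78), Abca1 (-3.53) and Gbp10 (-3.45). Spo11, the nuclease of meiotic recombination, was at 37.7 ± 3.29 CPM (SD, n = 5) at pH 7.4 and at 2.83 ± 0.715 CPM at pH 6.6, and its own fall from 0 h (-0.40, adjusted p = 0.0363) was lost without replicate 2 (adjusted p = 0.156), replicate 3 (0.26) or replicate 4 (0.0944), with RLE normalization (0.0699) or DESeq2 (0.0685), with only these groups (0.151) and without the block (0.112). Abca1 was at 27.5 ± 4.3 CPM at pH 7.4. Tspoap1 was at 7.57 ± 0.556 CPM at pH 7.4, and at 73.7 ± 24.9 and 71.8 ± 20.2 CPM at 0 h and pH 6.6, where it did not pass (-0.09, adjusted p = 0.734). Only 15.9% of the 50-base windows of Gbp10 were unique, so its level is uncertain.

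Fewer genes differed with IL-2 at pH 6.6. Between pH 6.6 without and with IL-2, 3278 genes passed (23.7%), 1459 higher (10.6%) and 1819 lower (13.2%) without it, and the count was 2119 without replicate 4. With a log2 difference of at least 1, 42 genes were higher (0.304%) and 474 lower (3.43%), and the groups did not overlap for 11.9% of genes. From 0 h to pH 6.6 with IL-2, 9463 genes passed (68.5%), 4210 higher (30.5%) and 5253 lower (38%). STAT5 targets were lower without IL-2 in 11 of 15 and none was higher (median -1.04), with Cish at 402 ± 89.7 CPM with IL-2 (SD, n = 5; -1.90, adjusted p = 1.08e-09). Gzmb was at 976, 529, 482, 1215 and 1023 CPM with IL-2, above every library without it and below every 0 h library (-3.24, standard error 0.18, adjusted p = 1.04e-14). It was 1 of the 3 largest falls without IL-2, with Egr1 (-3.01), which varied from 117 to 833 CPM among replicates with IL-2, and Tgm2 (-2.70). The largest rises without IL-2 were those of Dhrs3, a retinal reductase (28.6 ± 3.77 against 11.6 ± 1.2 CPM, 1.29), Kcnc1, a potassium channel (1.09), and Tbc1d4, a regulator of glucose transporter traffic (1.04). Of 51 replication genes, 36 were lower without IL-2 and 1 higher (median -0.65), while of 56 mitosis genes 7 were lower and 1 higher (median -0.25). Ribosome biogenesis genes were lower in 32 of 40 and higher in none (median -0.60), and glycolysis genes in 9 of 21, with none higher (median -0.35). Interferon-stimulated genes were lower in 18 of 40 and higher in none (median -0.28), and autophagy genes were higher in 15 of 30 and lower in none (0.22). Of the cAMP-CREB targets and regulators, 8 of 21 were higher and none lower (0.24). Myc was at 54.8 ± 10.4 CPM with IL-2, above the level without it (-1.07, adjusted p = 1.73e-08) and below that at 0 h.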

How the data were processed

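OT-I CTLs were sampled at 0 h and after 24 h at 3 pH values without or with IL-2, in 35 libraries of 7 groups with 5 replicates each. The authors deposited raw counts per gene and library, without normalization, from stranded mRNA libraries sequenced as single reads. The submitters' processing notes name cutadapt 1.8, STAR 2.5.2b, HTSeq 0.6.1 and GRCm38. Reads that aligned to several places were not counted, so genes with near-identical copies can be too low. Library sizes excluded the rows without a gene. In the 10 libraries at 0 h and pH 6.6 they held 36.7% to 48.3% of reads as multiply aligned and 2.58% to 9.19% as outside genes.

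Identifiers of 48349 of 48709 genes matched GENCODE M21, on GRCm38. The counts were analysed with edgeR 4.0.16 under R 4.3.3, which retained 13819 genes (filterByExpr, minimum count 10), normalized by TMM and fitted 1 robust quasi-likelihood model to all 35 libraries, with the replicate number as a block because the study's statistics were paired. Benjamini-Hochberg adjusted p-values had a threshold of 0.05. Members and gene lists were chosen with earlier results of these data known. Genes were named as lead members of a list, as the called members of a list with the largest rise and fall, or as the largest changes of a comparison (10 in each direction against 0 h, 5 against pH 7.4 and 3 against pH 6.6 with IL-2). The last 2 kinds had to reach a mean log2 CPM of 3, with 5 of 5 replicate pairs moving one way. CPM values are counts scaled to the TMM library sizes, except for cell type markers, which are scaled to library totals. RefSeq promoter windows (GRCm38.p6) were found for 807 of 1017 tested list members, and unique 50-base windows were counted on GENCODE M21 transcripts.

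The alternatives were RLE normalization, DESeq2 1.42.0, looser and stricter filters, only the groups compared, no block, each replicate left out, a minimum fold change, and thinning to 16721319 counts. On simulated counts for pH 6.6 against 0 h (13418 genes), the model called 58 of 74 genes changed by 0.5 on the log2 scale, 72 of 72 changed by 1, 54 of 54 changed by 2, and 12 of 13218 unchanged genes. The simulation changed few genes, drew rises and falls alike and had no replicate effect. How the calls behave when most genes change, as in these data, was not tested. In the 4 groups used (0 h, pH 7.4 and pH 6.6 without IL-2, pH 6.6 with IL-2), no pair of libraries within a group matched within sampling noise (40 pairs, lowest chi-square per degree of freedom 7.67). The series gives 5 biological replicates, and the labels do not say which animals they came from. Values of some genes are not reported here.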

Additional observations from a re-analysis of the deposited data

Results flagged for a closer look

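Single libraries stood far from the other 4 of their group in 20 of 300 groups of values for named genes, and in 9 of 88 for list means. By chance about 1 in 20 groups is picked out in this way. At pH 6.6, replicate 1 was apart with low Klf10 (140 CPM), Coq8a (40.1 CPM), Slc16a3 (5.3 CPM) and Ulk1 (121 CPM) and high Il7r (18.6 CPM). Replicate 4 at pH 6.6 was apart in Ikzf2 (114 CPM), Bach2 (97.3 CPM), Jund (75.5 CPM) and Trp53inp1 (888 CPM), and replicate 3 in Abca1 (1.18 CPM). At 0 h, replicate 1 was apart in Txnip (202 CPM), Xcl1 (23.1 CPM), Cd160 (161 CPM), Sqle (112 CPM), Nr4a3 (10.7 CPM) and Fosl2 (178 CPM), replicate 4 in Myc (178 CPM) and Bid (24.1 CPM), and replicate 5 in Sdhd (178 CPM) and Itga4 (8.94 CPM).

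Among list means, given in mean log2 CPM, replicate 1 at pH 6.6 was apart in amino acid transporters (4.88), cholesterol and fatty acid synthesis (4.77) and autophagy genes (5.88), and replicate 4 at pH 6.6 in memory transcription factors (6.88) and mitochondrial ribosomal proteins (4.71). At 0 h, replicate 5 was apart in cytosolic ribosomal proteins (8.58), oxidative phosphorylation subunits (6.73) and NRF2 targets (5.92), and replicate 1 in costimulatory receptors (5.81).

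For 15 named genes the change from 0 h was at least 0.5 on the log2 scale one way at pH 6.6 and at least 0.5 the other way at pH 7.4. Both changes share the 0 h libraries and the genes were picked for them, so the differences between the pH values are given as a description and their size was not tested independently. The log2 differences, pH 6.6 minus pH 7.4, were 4.07 for Nr4a1, 3.32 for Kif11, 3.27 for Fosl2, 2.92 for Serpinb6b, 2.32 for Sik1, 2.08 for Smox, 2.01 for Nr4a3, 1.82 for Crem, 1.71 for Mxi1, 1.63 for Odc1 and 1.62 for Cdkn1a. They were -4.08 for Ifit3, -3.93 for Iigp1, -3.45 for Gbp10 and -2.27 for Xcl1.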

How the results depend on the processing

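Counts of genes past the threshold stayed within 1.5 times the value reported under all alternatives run, except those given here. Requiring a change of 1 or more on the log2 scale as well left 4495 genes for pH 6.6 against 0 h, 2829 against pH 7.4, 4205 for pH 7.4 against 0 h, 516 for pH 6.6 without against with IL-2 and 3134 for pH 6.6 with IL-2 against 0 h. For pH 6.6 without against with IL-2, a fit of those groups alone gave 5369, and leaving out 1 replicate gave 2119 (without replicate 4) to 2630. The share of its calls that were higher without IL-2 was 44.5%, and became 30.3% without replicate 1, 30.7% without replicate 2 and 8.14% with the minimum fold change. Leaving out 1 replicate gave 9836 to 10167 genes for pH 6.6 against 0 h and 8310 to 8974 against pH 7.4.

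Without the replicate block the counts were 9979 (pH 6.6 against 0 h), 8601 (against pH 7.4), 9970 (pH 7.4 against 0 h), 2415 (pH 6.6 without against with IL-2) and 8991 (pH 6.6 with IL-2 against 0 h). Same-numbered libraries deviated together with r = 0.165 to 0.494 for the acid and neutral groups, and -0.0387 to 0.235 for the acid group and 0 h, where 3 of 5 exceeded 0.1, so the numbers did not clearly pair those groups.

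Of the values of named genes for pH 6.6 against 0 h, 1766 kept direction and call, 17 lost the call (Pim1, Atf3, Cdkn1a, Egr1 and Spo11), 4 gained it (Slc3a2 and Tfeb) and 7 changed sign. The latter, none of them called, were Abca1 (-0.06 without replicate 5, up to 0.39 without replicate 3), Mki67 (-0.01 without replicate 2, up to 0.22 without replicate 4), Plk1 (0.02 without replicate 1, down to -0.22 without replicate 3) and Tspoap1 (0.03 with only these groups, 0.04 without replicate 1, 0.03 without replicate 2, 0.04 without replicate 3 and -0.23 without replicate 4). The median of effector transcription factors moved from -0.36 to 0.04 with only these groups, and that of interferon-stimulated genes from -1.04 to -0.78 with the stricter filter. With that filter, the median of amino acid transporters moved from -0.36 to 0.01 and that of ATF4 and stress response genes from -1.97 to -1.49. The causes were not tested.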

Other observations

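Protein-folding genes, which no comparison above used, were mostly lower at pH 6.6 than at 0 h. Of 20 endoplasmic reticulum chaperones and unfolded protein response genes, 16 fell and 2 rose (median log2 fold change -0.68), and of 20 heat shock and cytosolic chaperones, 11 fell and 2 rose (-0.27). Against pH 7.4 the same lists were higher in 13 and 12 genes and lower in 1 each (0.31 and 0.33). Of 42 lysosomal genes, 15 rose and 19 fell (-0.03), of 22 NRF2 and redox genes 6 rose and 10 fell (-0.15), and of 8 GIMAP genes, which encode lymphocyte GTPases, 5 rose and 1 fell (0.40).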
